A study of Mus musculus with 2 samples.

Results

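The 10 genes described here encode ligands and receptors of the VEGF and angiopoietin systems: the ligands Vegfa, Vegfd, Angpt1, Angptl2 and Angptl4, and the receptors Kdr, Flt1, Nrp1, Tek and Tie1. They were chosen by symbol, and each symbol matched 1 of the 32287 features in the deposited tables. The data were 2 single-cell RNA libraries, R1 and R2, made with droplet barcoding from leptomeninges, the pia and arachnoid that cover the brain. The tissue had been dissected off the hemispheres of Pdgfra-H2BGFP mice of both sexes at 3 months of age. Every cell of both libraries thus comes from animals with a gene for a nuclear green reporter driven by Pdgfra. No wild-type group stands beside them. The libraries form 1 group, and the comparisons are therefore between cell classes inside the same libraries (n = 2). The labels do not say whether R1 and R2 came from separate animals. The p-values rest on a spread between these libraries that each fit shares across genes, and it may be technical. A very small p-value is thus no measure of how 1 gene would vary between animals.

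VEGF-A is secreted, binds the tyrosine kinase receptors encoded by Kdr and Flt1 together with the co-receptor encoded by Nrp1, and drives the growth and permeability of vessels. Kdr carries most of the growth signal in endothelium, while Flt1 binds VEGF-A tightly and can act as a decoy. Angiopoietin-1, often made by mural cells, activates the endothelial receptor encoded by Tek and so steadies vessels, and Tie1 encodes a related receptor that pairs with it.

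The filters on cells kept 2988 cells of R1 and 3038 of R2, with medians of 1643.5 and 1249 UMIs (unique molecular identifiers, 1 per captured transcript) per cell. The libraries shared 93 barcode sequences, 74 of them among the kept cells. Classes were rebuilt from marker genes, with the 10 members and their pathway genes left out of both the clustering and the marker lists, so the names may differ from those of the study. The layers of fibroblast-like cells were pial and perivascular-like (184 cells in R1 and 117 in R2), inner arachnoid-like (236 and 411), arachnoid barrier-like (41 and 32) and dural border-like (569 and 311). Beside them stood 325 and 315 endothelial-like cells and 52 and 53 mural-like cells, the contractile smooth muscle cells and pericytes of the vessel wall. Border macrophage-like cells (526 and 682), which should lack the endothelial receptors, served as the background class. The 10 endothelial markers summed to 20806 and 20902 CPM (counts per 1000000 UMIs of the class in 1 library) in endothelial-like cells, 3762 and 1991 CPM in mural-like cells, 209 to 1111 CPM in the 4 layers and 347 and 396 CPM in border macrophage-like cells. Within the layers part of this sum was Cdh5, at 257 and 218 CPM in dural border-like cells. The inner arachnoid-like class joined cluster F03 (73 and 76 cells), of which 95.9% and 96.1% of cells had at least 1% of their UMIs from the nuclear RNA Malat1, and cluster F02 (163 and 335 cells), of which 3.07% and 2.39% did and which the immunoglobulin genes Igha and Igkc led. The fibroblast-like clusters F04, F05 and F06 stayed unnamed.

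Levels below are CPM of the UMIs summed over a class in 1 library, with R1 given before R2. They compare classes for 1 gene and not genes with each other, since UMI counts were not scaled to transcript length. Intervals are exact 95% Poisson or binomial intervals and cover counting error only.

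Vegfa (mm10 chr17:46016993-46032369, minus strand), the main VEGF ligand, was highest among the named classes in pial and perivascular-like cells. It reached 291 and 200.4 CPM there (127 and 47 UMIs; mean 246 ± 64.0, SD, n = 2), against 51.8 and 41.5 CPM in inner arachnoid-like, 44.1 and 42.7 CPM in dural border-like and 6.69 and 8.39 CPM in endothelial-like cells. Both pial values lay above every other named class, and the endothelial values lay near those of border macrophage-like cells, at 6.51 and 3.94 CPM. After each cell was thinned to 1000 UMIs, 26.6% and 23.7% of pial and perivascular-like cells had a Vegfa UMI, against 1.07% and 0.24% of border macrophage-like cells. Without thinning these shares were 42.4% and 29.9% at medians of 2151 and 1460 UMIs, and 1.71% and 0.880% at medians of 1453 and 1203 UMIs. Arachnoid barrier-like cells, with 1 and 4 UMIs, and mural-like cells, with 4 and 1, held too few Vegfa UMIs to be placed in this order. The unnamed cluster F06 (37 and 53 cells, led by Meg3) stood at 488 and 217 CPM. Its level was above the pial level in each library, though in R2 the intervals overlapped (148 to 306 against 147 to 267 CPM). Its astrocyte marker sum was 3238 and 3827 CPM, against 335 and 405 CPM in pial and perivascular-like cells.

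Vegfd (mm10 chrX:164373378-164402650, plus strand), a ligand of the lymphatic receptor encoded by Flt4 and of Kdr in man, was scarce everywhere. It stood at 32.9 and 25.4 CPM in dural border-like cells (47 and 19 UMIs), 18.7 and 23.5 CPM in endothelial-like cells (14 UMIs in each library) and 16.0 and 4.26 CPM in pial and perivascular-like cells (7 and 1 UMIs). No Vegfd UMI was counted in microglia-like, mural-like or border macrophage-like cells of either library. With a floor of 3 counts per library for a class at 0, dural border-like cells were at least 15.2-fold and 12.9-fold above border macrophage-like cells. The 2 UMIs in each library of arachnoid barrier-like cells are too few for a place in the order.

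Angpt1 (mm10 chr15:42424723-42676977, minus strand, with the antisense gene Gm17473 on the other strand) encodes the activating ligand of the Tek receptor. Mural-like cells held 77.0 and 71.1 CPM of it, though from only 7 and 5 UMIs, pial and perivascular-like cells 71.0 and 51.2 CPM, and dural border-like cells 62.3 and 46.7 CPM. The intervals of these 3 classes overlapped in both libraries. Inner arachnoid-like cells, at 18.8 and 17.8 CPM, and endothelial-like cells, at 17.4 and 16.8 CPM, were lower than all 3 in both libraries, and border macrophage-like cells stood at 5.79 and 3.28 CPM. Angpt1 RNA was counted in both mural-like and fibroblast-like cells. No named class gave more of its UMIs than dural border-like cells (89 and 35), a total that also follows the number of cells recovered.

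Angptl2 (mm10 chr2:33216069-33247717, plus strand, with Ralgps1 on the other strand), a secreted angiopoietin-like protein that binds integrins and not Tek, followed a narrower pattern. Its level was 88.0 and 114 CPM in mural-like cells (8 UMIs in each library), 108 and 81.0 CPM in pial and perivascular-like cells and 40.01 and 38.5 CPM in inner arachnoid-like cells. It was lower in dural border-like cells, at 13.3 and 21.4 CPM, and in endothelial-like cells, at 6.69 and 6.71 CPM. The share of thinned cells with an Angptl2 UMI was 10.1% and 9.21% in pial and perivascular-like cells, against 0.8% and 0.24% in border macrophage-like cells. The unthinned shares were 18.5% and 14.5%, against 1.52% and 1.17%.

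Angptl4 (mm10 chr17:33773750-33781830, minus strand) encodes an inhibitor of lipoprotein lipase that responds to hypoxia and fatty acids. It peaked in dural border-like cells, at 123 and 174 CPM (176 and 130 UMIs; mean 148 ± 35.7, SD, n = 2), and both clusters of that class shared the high level, with 128 and 175 CPM in F00 and 113 and 173 CPM in F01. Pial and perivascular-like cells stood at 43.5 and 25.6 CPM, endothelial-like cells at 32.1 and 28.5 CPM, inner arachnoid-like cells at 21.2 and 16.3 CPM and border macrophage-like cells at 3.62 and 2.63 CPM. No other named class reached the dural border level in either library. Of thinned dural border-like cells 11.7% and 12.4% had an Angptl4 UMI, against 0.533% and 0.721% of border macrophage-like cells, and unthinned the shares were 23.7% and 27.3%, at medians of 2368 and 2123 UMIs, against 0.951% and 0.587%. Cluster F04, an unnamed fibroblast-like cluster with medians of 749 and 776.5 UMIs per cell, came next at 75.7 and 58.8 CPM.

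**Figure D1:**
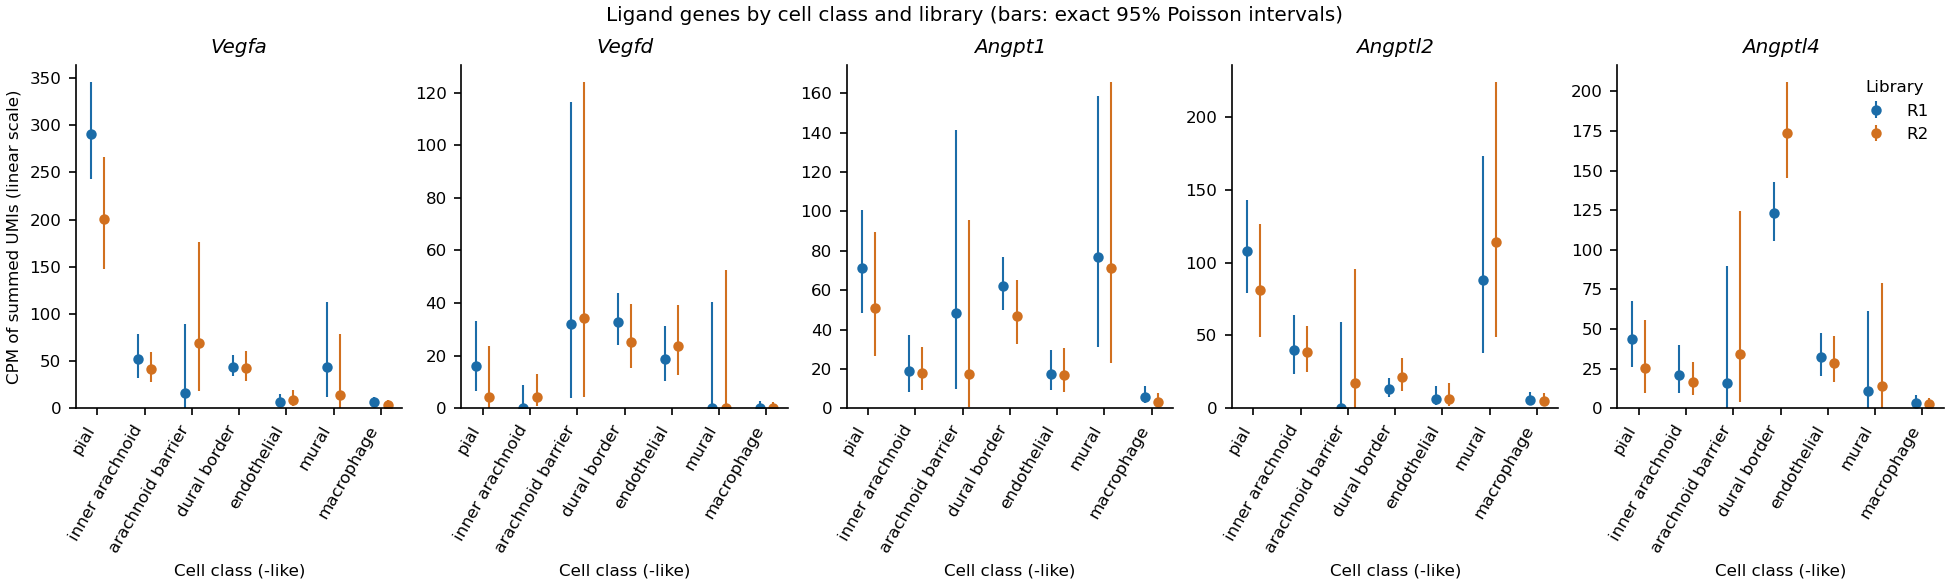
Levels of the 5 ligand genes in CPM (linear vertical axis) by cell class, with 1 point per library (R1 and R2) and exact 95% Poisson intervals as bars. Vegfa peaks in pial and perivascular-like cells at 291 and 200.4 CPM and Angptl4 in dural border-like cells at 123 and 174 CPM. Angpt1 is highest in mural-like, pial and perivascular-like and dural border-like cells, whose intervals overlap. Angptl2 is highest in mural-like and pial and perivascular-like cells. The mural points of Angpt1 and Angptl2 rest on 5 to 8 UMIs.

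Kdr (mm10 chr5:75932827-75978458, minus strand), the main signalling receptor of VEGF-A, was highest in endothelial-like cells. It reached 490 and 441 CPM there (366 and 263 UMIs; mean 465 ± 34.1, SD, n = 2). It was next highest in arachnoid barrier-like cells, at 129 CPM (55.6 to 254) and 85.9 CPM (27.9 to 201) from 8 and 5 UMIs, and stood at 44.7 and 41.5 CPM in inner arachnoid-like cells and 33.0 and 28.4 CPM in mural-like cells (3 and 2 UMIs). Dural border-like cells, at 7.70 and 8.01 CPM, pial and perivascular-like cells, at 6.87 and 8.53 CPM, and border macrophage-like cells, at 2.89 and 5.25 CPM, formed the low end. Arachnoid barrier-like cells lay between the endothelial-like and the inner arachnoid-like levels in both libraries. A Kdr UMI was found in 35.1% and 31.2% of thinned endothelial-like cells, 11.1% and 17.4% of arachnoid barrier-like cells (3 of 27 and 4 of 23), 2.84% and 4.33% of inner arachnoid-like cells and 0.533% and 1.20% of border macrophage-like cells. Without thinning these 4 pairs of shares were 45.5% and 36.8%, 19.5% and 12.5%, 7.20% and 5.35%, and 0.760% and 1.17%, with medians of 1562 and 1420 UMIs in endothelial-like, 1401 and 1452 in arachnoid barrier-like and 1132.5 and 1309 in inner arachnoid-like cells.

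Flt1 (mm10 chr5:147561604-147726011, minus strand), the high-affinity receptor of VEGF-A and PlGF, marked nearly all endothelial-like cells. Its level there was 3072 and 2629.5 CPM (mean 2851 ± 313, SD, n = 2), against 693 and 313 CPM in mural-like cells, 75.3 and 93.4 CPM in inner arachnoid-like cells, 34.4 and 64.0 CPM in pial and perivascular-like cells, 11.9 and 30.7 CPM in dural border-like cells and 7.23 and 15.1 CPM in border macrophage-like cells. Mural-like cells stood apart both from the endothelial level above and from every layer below, in both libraries. Thinned to 1000 UMIs, 90.8% and 88.7% of endothelial-like cells and 21.9% and 22.2% of mural-like cells had a Flt1 UMI, against 1.07% and 1.68% of border macrophage-like cells. The unthinned shares were 92.9% and 86.3%, 21.2% and 17.0%, and 1.71% and 2.64%.

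Nrp1 (mm10 chr8:128358604-128503363, plus strand, with the microRNA gene Mir1903 inside it), a co-receptor of VEGF-A and a receptor of semaphorins, was spread over most classes. It was highest in border macrophage-like cells, at 388 and 450 CPM, with 281 and 379 CPM in dural border-like cells and 246 and 200 CPM in endothelial-like cells. Pial and perivascular-like cells held 103 and 102 CPM and inner arachnoid-like cells 23.5 and 34.1 CPM. The 3 high classes kept this order in both libraries, and inner arachnoid-like cells were the lowest of these 3 layers. Among the thinned cells 22.8% and 32.3% of dural border-like, 20.7% and 19.9% of endothelial-like and 29.9% and 33.4% of border macrophage-like cells had an Nrp1 UMI (40.1% and 52.1%, 35.7% and 29.2%, and 41.6% and 39.7% unthinned).

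Tek (mm10 chr4:94739289-94874976, plus strand), the receptor of the angiopoietins, and Tie1 (mm10 chr4:118471191-118490061, minus strand), its partner receptor, were highest in endothelial-like cells and low in the 3 larger named layers. Tek stood at 435 and 359 CPM in endothelial-like cells, 121 and 42.7 CPM in mural-like cells (11 and 3 UMIs), at most 8.89 CPM in the pial and perivascular-like, inner arachnoid-like and dural border-like layers and 1.45 and 1.97 CPM in border macrophage-like cells. Tie1 stood at 379 and 341 CPM in endothelial-like cells, 55.0 and 14.2 CPM in mural-like cells (5 and 1 UMIs) and 2.17 and 1.31 CPM in border macrophage-like cells. In pial and perivascular-like cells no Tie1 UMI was counted, so endothelial-like cells were at least 55.1-fold and 26.6-fold higher with a floor of 3 counts per library. Tek UMIs were seen in 37.8% and 27.6% and Tie1 UMIs in 31.9% and 31.7% of thinned endothelial-like cells, against at most 0.24% of border macrophage-like cells for either gene, while unthinned shares were 46.2% and 42.9% for Tek and 52.0% and 41.0% for Tie1 in endothelial-like cells and at most 0.570% in border macrophage-like cells.

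**Figure D2:**
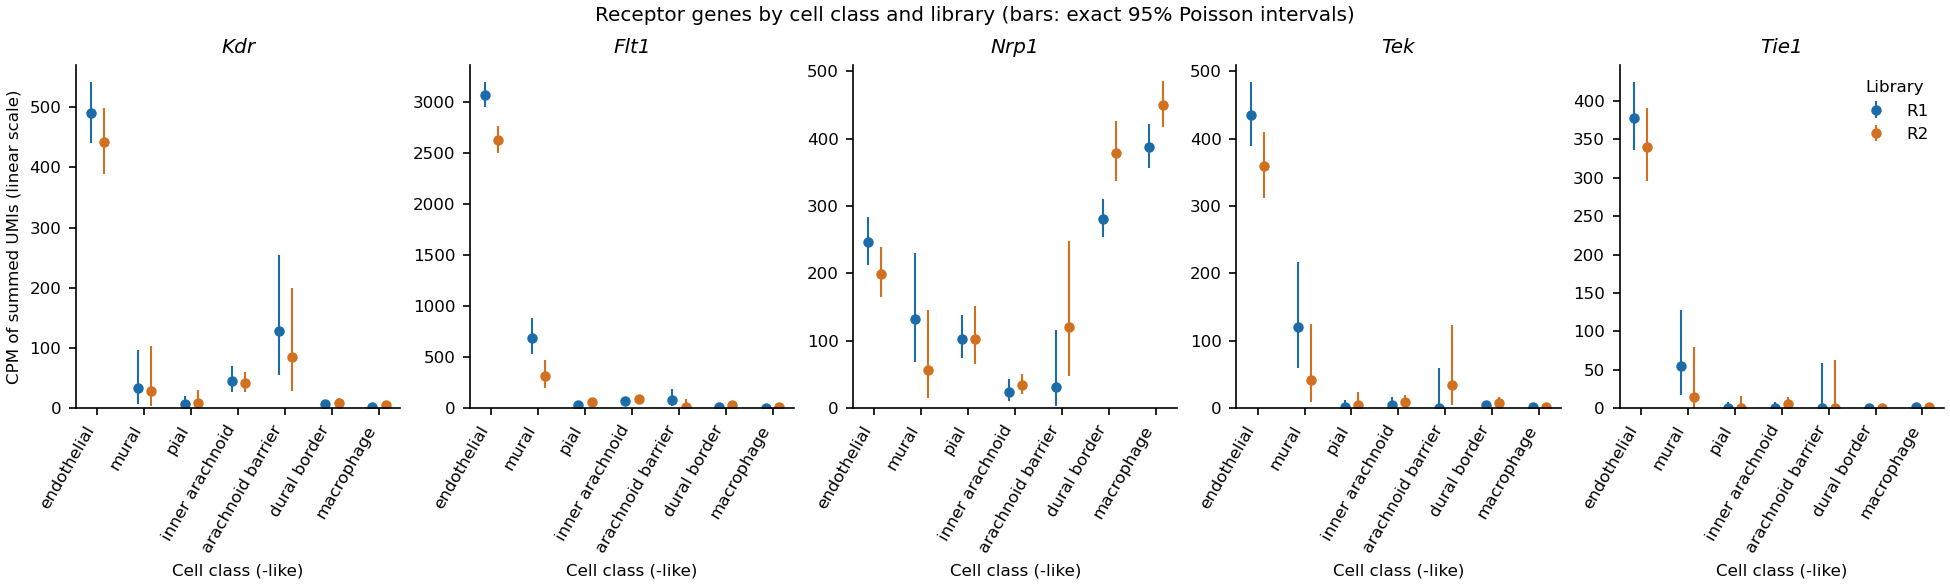
Levels of the 5 receptor genes in CPM (linear vertical axis) by cell class, with 1 point per library (R1 and R2) and exact 95% Poisson intervals as bars. Kdr, Flt1, Tek and Tie1 peak in endothelial-like cells, Flt1 at 3072 and 2629.5 CPM, while Nrp1 is highest in border macrophage-like cells at 388 and 450 CPM and next in dural border-like cells.

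The upstream sequences of the 4 endothelial receptors are shown because these genes shared 1 high class. RefSeq promoter windows (GRCm38.p6, the assembly of mm10) matched 8 of the 10 members. The 250 bases before the RefSeq start are printed 5′ to 3′ on the gene's strand, with GGAA and its reverse complement TTCC, the core of the sites that ETS transcription factors bind, in capitals. The windows are chr5:75978456-75978705 for Kdr (minus strand), chr5:147726012-147726261 for Flt1 (minus strand), chr4:94739039-94739288 for Tek (plus strand) and chr4:118489850-118490099 for Tie1 (minus strand). The RefSeq start of Tie1 lies 212 bases inside the gene as annotated, so most of its window is not upstream of that gene start.
Kdr: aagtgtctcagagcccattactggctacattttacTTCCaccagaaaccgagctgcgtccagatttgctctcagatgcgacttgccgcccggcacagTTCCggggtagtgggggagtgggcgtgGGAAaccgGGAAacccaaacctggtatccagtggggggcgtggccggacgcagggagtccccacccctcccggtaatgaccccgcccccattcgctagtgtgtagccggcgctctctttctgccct
Flt1: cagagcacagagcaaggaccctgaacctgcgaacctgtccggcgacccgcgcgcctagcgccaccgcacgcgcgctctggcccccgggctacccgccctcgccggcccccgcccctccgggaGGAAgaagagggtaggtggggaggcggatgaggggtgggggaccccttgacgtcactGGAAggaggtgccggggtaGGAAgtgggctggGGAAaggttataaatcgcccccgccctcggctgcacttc
Tek: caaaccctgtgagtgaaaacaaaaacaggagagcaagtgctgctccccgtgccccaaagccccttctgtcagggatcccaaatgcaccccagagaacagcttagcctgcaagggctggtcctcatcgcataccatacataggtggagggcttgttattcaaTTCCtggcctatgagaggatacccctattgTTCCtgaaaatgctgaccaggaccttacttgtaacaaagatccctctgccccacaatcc
Tie1: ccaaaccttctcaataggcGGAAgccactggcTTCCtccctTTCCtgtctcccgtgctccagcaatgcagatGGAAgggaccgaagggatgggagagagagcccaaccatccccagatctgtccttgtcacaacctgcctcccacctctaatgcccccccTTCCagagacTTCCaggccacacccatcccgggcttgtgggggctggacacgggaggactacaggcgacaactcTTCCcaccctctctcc
The motif was found 4 times in the Kdr window, 4 times in that of Flt1, 2 times in that of Tek and 7 times in that of Tie1. Of all 32851 RefSeq promoter windows of this length 93.4% hold it at least once. The longer ETS site CCGGAAG, present in 6.91% of all windows, was in none of the 4.

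In the fit over 7 classes, endothelial-like cells were set against the mean of the 3 larger named fibroblast-like layers, mural-like cells, microglia-like cells and border macrophage-like cells, each class with equal weight. All fold changes compare a class with the mean of the fitted log2 levels of the others, so 1 very high class weighs less than in a mean of CPM. Of the 10 members 7 were higher and 2 lower, where 30.6% of the 10810 genes tested passed (20.1% higher and 10.5% lower). The members' median log2 fold change was 2.45, against 0.08 over all genes tested. Tie1 (log2 fold change 7.52 ± 0.24 SE, adjusted p = 3.1e-208), Tek (6.09 ± 0.20, adjusted p = 7.5e-204), Flt1 (5.96 ± 0.13) and Kdr (4.95 ± 0.16, adjusted p = 1.3e-195) differed most, and all 4 were higher in both libraries. Tie1 was at 0 in pial and perivascular-like cells, so that its fitted size depends on the prior count. Nrp1 was higher by much less (0.81 ± 0.16, adjusted p = 6.2e-06), as was Angptl4 on the log scale (1.02 ± 0.35, adjusted p = 0.0151). The plain CPM after TMM scaling gave Angptl4 no such direction, at 31.7 and 28.6 in endothelial-like cells against means of 32.5 and 36.4 over the other classes. By the same measure Nrp1 stood at 243 and 200.5 against means of 175 and 190, close together in R2. Border macrophage-like and dural border-like cells held more Nrp1 than endothelial-like cells in both libraries. Vegfd also passed (adjusted p = 2.8e-07), on 14 UMIs in each library and against classes at 0. Vegfa was lower (−1.71 ± 0.50, adjusted p = 2.8e-03; −1.90 in R1 and −1.02 in R2), as was Angptl2 (−1.51 ± 0.61, adjusted p = 0.0432), and Angpt1 did not pass (−0.47 ± 0.37, adjusted p = 0.373). The call of Vegfa was lost with classes and test on separate parts of the counts (−1.74, adjusted p = 0.0540), and those of Angptl2 and Angptl4 under several alternatives: Angptl2 stood at −0.25 among cells with at least 1% Malat1, and Angptl4 at 0.97 with DESeq2. Beside these values, all 16 dissociation and stress genes tested were higher in endothelial-like cells, with sums of 11117 and 13128 CPM against 542 to 1501 CPM in the layers, and their part in the member differences was not tested.

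Other genes of the family and pathway were also higher in endothelium. Of 8 tested genes of the family outside the members (13 listed), 5 were higher and 3 lower. Among them were Flt4, the receptor of VEGF-C and VEGF-D, at 72.2 and 47.0 CPM (log2 fold change 7.47 ± 0.57, adjusted p = 2.6e-37), and Ptprb, a phosphatase that restrains the Tek receptor, at 1960 and 2041 CPM. Of the other family ligands, Vegfc was higher in endothelial-like cells, while Angpt2, Pgf and Vegfb were lower. Of 16 tested genes of VEGF and Tie2 signalling (20 listed) 12 were higher and none lower, among them the transcription factor gene Sox17 (7.58 ± 0.22, adjusted p = 1.9e-246) and the Notch ligand gene Dll4 (6.90 ± 0.48, adjusted p = 3.0e-45). The median of these 16 was 3.6. Hypoxia response genes gave 10 higher and 2 lower of 17 tested, led by the glucose carrier gene Slc2a1 (6.11 ± 0.14), and partners of lipoprotein lipase and the ANGPTL proteins gave 6 higher and 1 lower of 12. Gpihbp1, which anchors lipoprotein lipase to capillaries in other tissues, had 2 UMIs in each library in endothelial-like cells.

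Endothelial-like cells split into 5 clusters, and of the 10 members the 5 receptors had enough UMIs to be tested among them. E02 (65 and 75 cells) and E03 (34 and 34) had arterial markers, E00 (37 and 30) and E04 (59 and 81) venous markers, and E01 (130 and 95) scored highest for capillary markers but stayed unnamed, since pericyte genes such as Rgs5, Vtn and Abcc9 were among those that led it. The mural marker sum was 3127 and 3168 CPM in E01, against 312 to 1206 CPM in the other 4 clusters. The stress genes summed to 27582 and 37554 CPM in E00 and 30930 and 31070 CPM in E03, against 1262 to 2404 CPM in E01, E02 and E04.

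Kdr separated the clusters most. It stood at 918 and 846 CPM in E04, 620 and 563 CPM in E01, 321 and 244 CPM in E00, 255 and 281 CPM in E03 and 24.4 and 21.6 CPM in E02, the last from 2 UMIs in each library. The arterial-marker cluster E02 lay below every other cluster and the venous-marker cluster E04 above every other, with no overlap between libraries. In a fit with each cluster as its own class, added after the data had been seen, Kdr was lower in E02 than in the mean of the other 4 (−4.27 ± 0.37, adjusted p = 5.1e-09) and higher in E04 (2.20 ± 0.17, adjusted p = 3.8e-09) and E01 (1.49 ± 0.17, adjusted p = 1.3e-06). E02 and E04 had like stress sums, of 2241 and 1262 CPM and of 2015 and 1290 CPM. The second arterial-marker cluster, E03, gave no call for Kdr (0.23 ± 0.26, adjusted p = 0.542).

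Flt1 varied far less, at 3876.5 and 3116 CPM in E01, 2999.6 and 2872 CPM in E03, 2583 and 2782 CPM in E02, 2428 and 2245 CPM in E00 and 2252 and 2241 CPM in E04. It was higher in E01 (0.39 ± 0.12, adjusted p = 0.0249) and lower in E04 (−0.42 ± 0.13, adjusted p = 0.0153). Nrp1 was highest in E02, at 499 and 334 CPM, against 83.7 to 318 CPM over the other clusters (1.28 ± 0.24, adjusted p = 2.0e-04), and lowest in E00, at 99.6 and 83.7 CPM (−1.29 ± 0.29, adjusted p = 1.3e-03). Kdr and Nrp1 thus ran opposite ways in E02.

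Tie1 reached 776 and 617 CPM in E04 (1.41 ± 0.18, adjusted p = 3.3e-06) and 184 and 93.5 CPM in E03 (−1.33 ± 0.30, adjusted p = 1.6e-03), with 199 to 475 CPM elsewhere. Tek moved the same ways by less, at 482 and 534 CPM in E04 (0.56 ± 0.17, adjusted p = 0.0157) and 269 and 160 CPM in E03 (−0.87 ± 0.25, adjusted p = 8.9e-03). The high stress sums of E03 stand beside these values and their part was not tested. The called members per cluster were 4 of 5 tested in E04, 2 each in E01, E02 and E03 and 1 in E00, where 34.7%, 16.3%, 39.4%, 36.8% and 32.7% of 3559 genes passed. The ligands were too scarce for this fit. As values, Angpt1 stood at 73.1 and 86.3 CPM in E02 (6 and 8 UMIs), against at most 28.4 CPM in the other clusters, and Angptl4 at 66.2 and 41.6 CPM in E04.

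**Figure D3:**
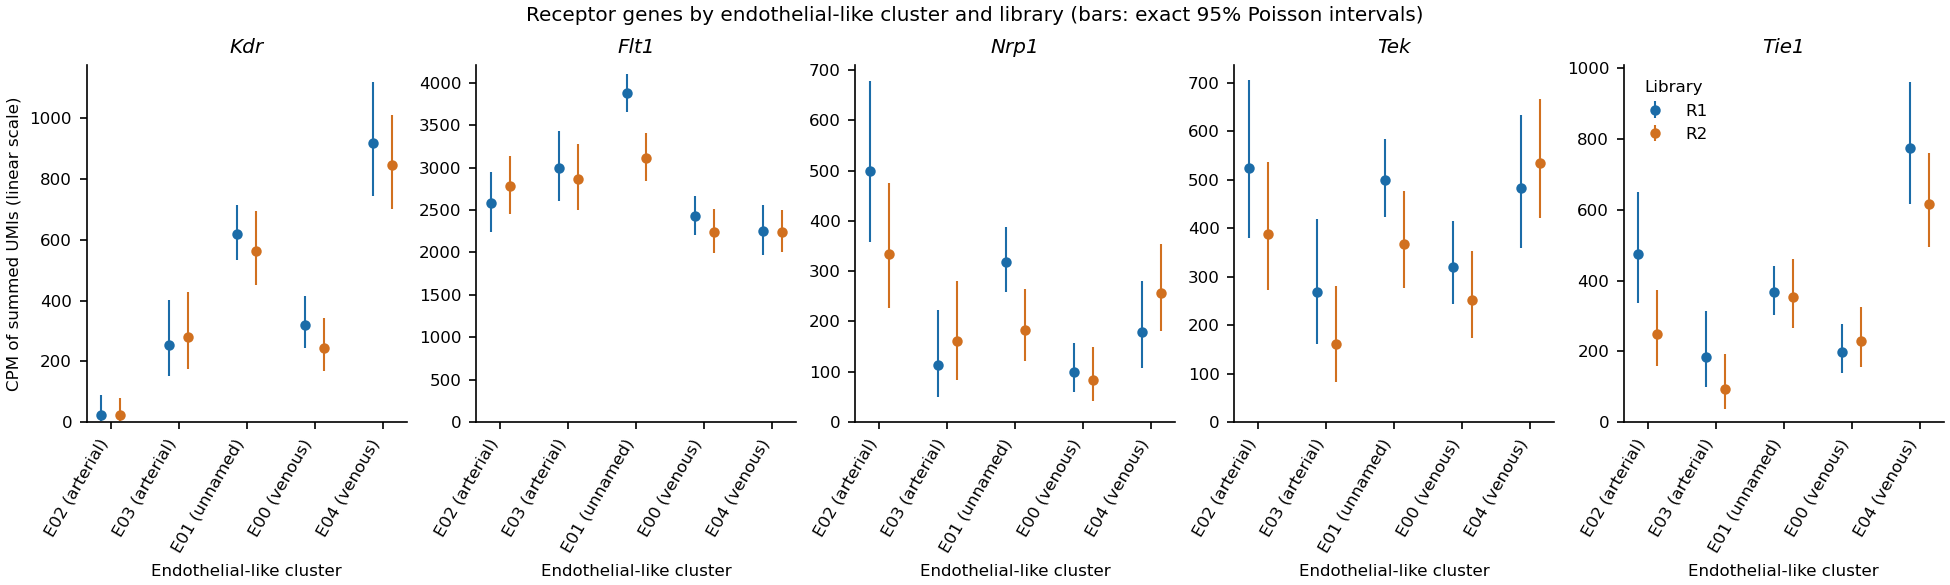
Levels of the 5 receptor genes in CPM (linear vertical axis) in the 5 endothelial-like clusters, with 1 point per library (R1 and R2) and exact 95% Poisson intervals as bars. Kdr runs between 24.4 and 21.6 CPM in E02 and 918 and 846 CPM in E04, while Flt1 stays between 2241 and 3876.5 CPM in every cluster.

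With the clusters joined by marker list, Kdr was lower in the arterial-marker pair E02 and E03 (−2.05 ± 0.19, adjusted p = 2.0e-05) and higher in E01 (1.05 ± 0.15, adjusted p = 8.6e-04) and in the venous-marker pair E00 and E04 (0.998 ± 0.15, adjusted p = 8.2e-04), each against the mean of the other 2 sets. The members called were 1, 2 and 3 of the 5 tested, where 10.6%, 10.2% and 11.0% of 5089 genes passed. Nrp1 was lower in the venous-marker pair (−0.82 ± 0.23, adjusted p = 0.0376; −1.20 in R1 and −0.27 in R2), and the small Flt1 differences of E01 and of the venous-marker pair were lost with DESeq2 and with no library block, that of E01 also with RLE size factors, at most 5% mitochondrial UMIs and separate parts of the counts, the last of which also ended that of the venous-marker pair. The Nrp1 call was lost with DESeq2 (−0.77, adjusted p = 0.577) and on separate parts of the counts (−0.63, adjusted p = 0.136). Tie1, not called in either pair, was higher in the venous-marker pair with no low-count filter (0.60) and with at least 1% Malat1 (0.52), and lower in the arterial-marker pair on separate parts of the counts (−0.81). In the family list the co-receptor gene Nrp2, a venous and lymphatic marker, was higher in the venous-marker pair (3.07 ± 0.23, adjusted p = 5.0e-06) and lower in the arterial-marker pair (−3.70 ± 0.39, adjusted p = 5.8e-05). The ligand gene Vegfc was higher in the arterial-marker pair, at 1.32 ± 0.29 (adjusted p = 0.0107). Of 13 signalling genes tested, 3 were higher and 5 lower in the venous-marker pair and 4 higher and 1 lower in the arterial-marker pair. Stress genes passed in every direction here, with 15 of 16 higher in the venous-marker pair, 12 higher in the arterial-marker pair and 15 lower in E01.

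Mural-like cells were set against the mean of the other 6 classes in the same fit. Of the 10 members 5 were higher on the log scale and none lower, where 10.2% of genes passed (7.07% higher and 3.14% lower). The ligand genes Angptl2 (2.77 ± 0.53, adjusted p = 5.8e-06) and Angpt1 (1.77 ± 0.54, adjusted p = 0.0140) were higher in both libraries. Flt1 (2.88 ± 0.24, adjusted p = 1.7e-30), Tek (3.30 ± 0.58, adjusted p = 3.4e-07) and Tie1 (3.48 ± 0.89, adjusted p = 1.6e-03) also passed. Against a mean of plain CPM, in which the endothelial level weighs most, their direction did not hold in R2. In R1 it held for Flt1 and Tek but not for Tie1. After TMM scaling Flt1 stood at 598 and 279 CPM in mural-like cells against means of 533 and 476.5 CPM over the other classes. Tek stood at 104 and 38.1 CPM against 74.2 and 64.2 CPM, and Tie1 at 47.5 and 12.7 CPM against 63.1 and 58.5 CPM. Few cells held these UMIs: without thinning, Tek was seen in 5 of 52 and 2 of 53 mural-like cells. Tie1 was seen in 2 of 52 and 1 of 53. Kdr did not pass (0.18 ± 0.64, adjusted p = 0.938). With classes and test on separate parts of the counts Angpt1 (2.07, adjusted p = 0.0507) and Tie1 (2.45, adjusted p = 0.101) lost their call.

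Endothelial markers stood beside the endothelial receptors in mural-like cells. In R1 mural-like cells had 22.6% of the endothelial level of Flt1, 27.8% of Tek, 14.5% of Tie1 and 6.74% of Kdr, beside 13.2% of Cldn5, 25.3% of Pecam1, 18.7% of Cdh5 and 60.8% of Esam. In R2 they had 11.9% of Flt1, 11.9% of Tek, 4.17% of Tie1 and 6.44% of Kdr, beside 1.89% of Cldn5, 3.87% of Pecam1, 18.8% of Cdh5 and 36.6% of Esam. Flt1, Tek, Tie1, Cldn5, Pecam1 and Esam were lower in R2 than in R1 on this measure, while Kdr and Cdh5 were nearly level. No gene of the endothelial list was at 0 in mural-like cells, and the part of endothelial RNA in these values was not tested. The ligand genes lay the other way round: the mural level was 4.43 and 4.24 times the endothelial level for Angpt1 and 13.2 and 16.9 times for Angptl2.

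Other family genes higher in mural-like cells numbered 4 of 8 tested and included Pgf, which encodes the Flt1 ligand PlGF, at 143 and 99.5 CPM (2.47 ± 0.44, adjusted p = 7.7e-07). Angpt2, the context-dependent Tek ligand gene, stood at 99.0 and 99.5 CPM. Lpl, which encodes the lipase that ANGPTL4 inhibits, was higher too (5.81 ± 0.76, adjusted p = 1.2e-12), at 165 and 56.9 CPM from 15 and 4 UMIs. Of 16 signalling genes 7 were higher and none lower. Mural-like cells also had 14 of 16 stress genes higher.

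Set against the mean of endothelial-like and mural-like cells, the 3 layers with enough cells had 2 members higher and 4 lower, where 31.5% of genes passed (16.9% higher and 14.7% lower). The members' median was −0.09, against 0.13 over all genes. Vegfa was higher in the layers (2.49 ± 0.33, adjusted p = 1.6e-12), as was Angptl4 (1.34 ± 0.45, adjusted p = 0.0127), a call that was lost with DESeq2 (1.33), at most 5% mitochondrial UMIs (0.77) and a limit of 30 cells (0.97). Kdr (−3.02 ± 0.56, adjusted p = 9.1e-07), Flt1 (−4.74 ± 0.19, adjusted p = 3.8e-136), Tek (−5.00 ± 0.44, adjusted p = 9.2e-28) and Tie1 (−7.05 ± 0.81, adjusted p = 1.1e-16; −5.36 in R1 and −3.97 in R2) were lower. Kdr lost its call with classes and test on separate parts of the counts (−2.52, adjusted p = 0.104). Nrp1, Angpt1, Angptl2 and Vegfd did not pass. Nrp1 was called lower with the limit of 30 cells (−0.72, adjusted p = 0.0264). With at most 5% mitochondrial UMIs and with at least 1% Malat1, settings that left endothelial-like cells alone on the vessel side, Nrp1 was called lower (−1.59 and −1.68) and Angptl2 higher (7.26 and 2.58). The 4 receptors lower in the layers were the same 4 that peaked in endothelial-like cells. Both comparisons use the same endothelial and layer sums, so this match is not a separate result.

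Within the layers, where Tek and Tie1 were too scarce to be tested, each layer was compared with the mean of the other 2. In the alternatives with F02 apart or F04 in the fit, that cluster was a class of its own. The mean of the others then included it. Pial and perivascular-like cells had 2 of 8 members higher, where 17.7% of 8852 genes passed (9.53% higher and 8.15% lower). These were Vegfa (2.33 ± 0.22, adjusted p = 1.8e-24) and Angptl2 (1.80 ± 0.29, adjusted p = 2.3e-08), and both kept their direction and call under each of the alternatives run. Beside them, the 6 pericyte markers summed to 6416 and 5356 CPM in pial and perivascular-like cells, against 4180 and 4437 CPM in mural-like cells. Nearly all of the pial sum was Vtn, at 6285 and 5275 CPM, while the mural marker Rgs5 stood at 13.7 and 55.4 CPM there, against 4697 and 1792 CPM in mural-like cells. The 6 smooth muscle markers summed to 222 and 119 CPM, against 16941 and 19836 CPM. Angpt1 did not pass (0.81 ± 0.32, adjusted p = 0.0661) but did so among cells with at least 1% Malat1 (1.93), with at most 5% mitochondrial UMIs (1.73) and with F02 apart (1.44). Kdr was called lower only at the limit of 30 cells (−2.15) and with F02 apart (−1.88). In the family list Angpt2 was higher (1.26 ± 0.28, adjusted p = 9.9e-05) and Pgf lower (−1.60 ± 0.39, adjusted p = 6.2e-04). Of 15 hypoxia response genes 1 was higher, the kinase gene Pdk1 (2.16 ± 0.24, adjusted p = 4.1e-17), and 3 were lower. Hspg2, which encodes the VEGF-binding proteoglycan perlecan, was also higher (2.29 ± 0.24, adjusted p = 1.1e-18), while 2 of 15 matrix genes in all were higher and 3 lower.

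Dural border-like cells had 3 members higher and 4 lower, where 29.1% of genes passed (14.3% higher and 14.7% lower). Nrp1 (2.24 ± 0.21, adjusted p = 1.4e-25), Angptl4 (2.15 ± 0.25, adjusted p = 8.4e-17) and Vegfd (2.0 ± 0.48, adjusted p = 2.1e-04) were higher. Vegfa (−1.65 ± 0.24, adjusted p = 6.0e-11), Angptl2 (−2.23 ± 0.30, adjusted p = 4.6e-12), Flt1 (−1.98 ± 0.30, adjusted p = 7.9e-10) and Kdr (−1.50 ± 0.56, adjusted p = 0.0269) were lower, but several of these calls were lost elsewhere. Vegfd and Kdr lost theirs with DESeq2, Kdr also with at most 5% mitochondrial UMIs, Vegfa with F04 in the fit (−0.27, adjusted p = 0.493) and Angptl2 at the limit of 30 cells (−1.14, adjusted p = 0.349). Angpt1 was called higher among cells with at least 1% Malat1 (1.46) and with F02 apart (1.06). Pgf was the family gene with the largest difference, at 209 and 279 CPM, against 20.6 and 29.9 CPM in pial and perivascular-like and 16.5 and 22.2 CPM in inner arachnoid-like cells (3.14 ± 0.24, adjusted p = 1.7e-36). Of these layers, dural border-like cells thus had the highest levels of the ligand genes Angptl4, Vegfd and Pgf, while Vegfb, Angpt2 and the co-receptor gene Nrp2 were lower. The lipoprotein receptor gene Vldlr was the only 1 of 8 lipase and ANGPTL partners to pass (3.78 ± 0.45, adjusted p = 2.0e-15), and 7 of 15 matrix genes were higher and 1 lower.

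Inner arachnoid-like cells had 2 members higher and 5 lower, where 28.9% of genes passed (17.5% higher and 11.4% lower). Kdr (2.91 ± 0.43, adjusted p = 4.4e-10) and Flt1 (1.88 ± 0.27, adjusted p = 2.4e-10) were higher than in the other layers. Both were higher also with cluster F02 kept apart, so that the class was F03 alone and F02 stood among the others. Kdr then stood at 2.29 (adjusted p = 3.3e-05) and Flt1 at 1.43 (adjusted p = 1.3e-04). With arachnoid barrier-like cells among the other layers Kdr stood at 1.72 (adjusted p = 2.9e-04). The level of Kdr was 48.9 and 61.8 CPM in F03 and 39.0 and 31.2 CPM in F02, so both clusters of the class carried it. The 10 endothelial markers summed to 574 and 587 CPM in inner arachnoid-like cells, with 3 and 1 of them at 0, against 347 and 396 CPM in border macrophage-like cells. Among them Cldn5 stood at 21.2 and 14.8 CPM and Pecam1 at 2.35 and 4.45 CPM, against 10.9 and 11.8 CPM and 1.45 and 5.91 CPM. The part of these markers in the receptor differences was not tested.

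Nrp1 was lower in inner arachnoid-like cells (−2.21 ± 0.29, adjusted p = 1.3e-12), as were Angptl4 (−1.58 ± 0.36, adjusted p = 1.5e-04), Angpt1 (−1.17 ± 0.36, adjusted p = 6.3e-03) and Vegfd (−2.19 ± 0.76, adjusted p = 0.0186; −3.02 in R1 and −0.61 in R2). Of these, Nrp1 kept its call under each of the alternatives run. Angptl4 lost its call at the limit of 30 cells (−1.004, adjusted p = 0.1235), with F02 apart (−0.87, adjusted p = 0.244) and with classes and test on separate parts of the counts (−1.02, adjusted p = 0.1399). Angpt1 lost its call at the limit of 30 cells (−0.84, adjusted p = 0.176), with DESeq2 (−1.20, adjusted p = 0.114) and on separate parts of the counts (−0.97, adjusted p = 0.206), and stood at −3.23 with F02 apart. Vegfd lost its call with F04 in the fit (−1.29, adjusted p = 0.379). Angptl2 was called higher with F04 in the fit (1.01) and at the limit of 30 cells (1.22). Vegfa passed as lower with both clusters in the class (−0.68 ± 0.26, adjusted p = 0.0360). It turned to 0.53 with F02 apart, where F02 moved to the other side of the comparison. Its call was lost under most alternatives, so no direction can be given. Its level was 81.5 and 75.1 CPM in F03 and 11.1 and 24.5 CPM in F02. Nrp2 was higher (1.86 ± 0.25, adjusted p = 6.2e-12), so that the neuropilin genes ran opposite ways in this layer. Of 15 hypoxia response genes 6 were higher and 1 lower, led by Egln3, an oxygen-sensing hydroxylase gene (2.28 ± 0.36, adjusted p = 1.2e-08).

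**Figure D4:**
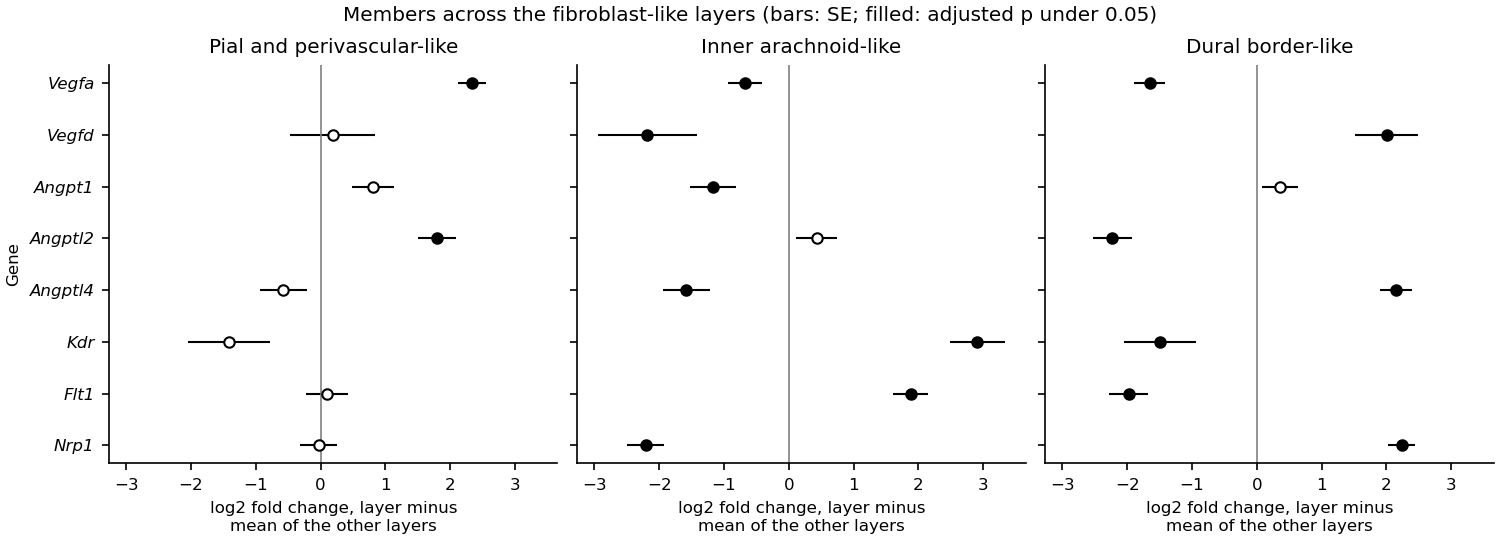
Log2 fold changes (horizontal axis, with SE bars) of the 8 members tested among fibroblast-like layers, each layer against the mean of the other 2, with filled points for an adjusted p under 0.05. Vegfa and Angptl2 are higher in pial and perivascular-like cells, Kdr and Flt1 in inner arachnoid-like cells, and Vegfd, Angptl4 and Nrp1 in dural border-like cells.

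Arachnoid barrier-like cells, the tight-junction layer under the dura, fell below the limit of 40 cells in R2 and were tested only at a limit of 30 cells, chosen after the data had been seen. Of 8 members tested only Kdr passed (2.67 ± 0.61, adjusted p = 9.8e-04), where 5.46% of 8484 genes did. The call rests on 8 and 5 UMIs, and when cells were classed on a separate part of the counts, 0 of the 73 arachnoid barrier-like cells fell in a class of that name. In this class Cldn5 had 32.2 and 0 CPM, Pecam1 16.1 and 0 CPM and Esam 0 CPM in both libraries, and 4 and 8 of the 10 endothelial markers were at 0. Nrp2 was also abundant there, at 660 and 395 CPM (41 and 23 UMIs).

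The share of Kdr in the summed Kdr and Flt1 UMIs was higher in the arachnoid classes than in endothelial-like cells, though not in the arachnoid alone. Kdr gave 13.7% (12.5 to 15.1) and 14.4% (12.8 to 16.1) of the Kdr and Flt1 UMIs of endothelial-like cells. It gave 61.5% (31.6 to 86.1) and 83.3% (35.9 to 99.6) in arachnoid barrier-like cells and 37.3% (24.1 to 51.9) and 30.8% (21.5 to 41.3) in inner arachnoid-like cells. The intervals of both arachnoid classes lay above those of endothelial-like cells in each library. They also lay above those of every endothelial-like cluster but E04, whose 29.0% (24.2 to 34.1) and 27.4% (23.3 to 31.8) overlapped those of inner arachnoid-like cells. Shares like that of inner arachnoid-like cells were also found, on few UMIs, in dural border-like cells, at 39.3% (21.5 to 59.4) and 20.7% (7.99 to 39.7), and in border macrophage-like cells, the background class, at 28.6% (8.39 to 58.1) and 25.8% (11.9 to 44.6). These intervals overlapped those of inner arachnoid-like cells in both libraries. Mural-like cells stood lower, at 4.55% (0.947 to 12.7) and 8.33% (1.03 to 27.0), and E02 lowest, at 0.935% (0.113 to 3.34) and 0.769% (0.0933 to 2.75).

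**Figure D5:**
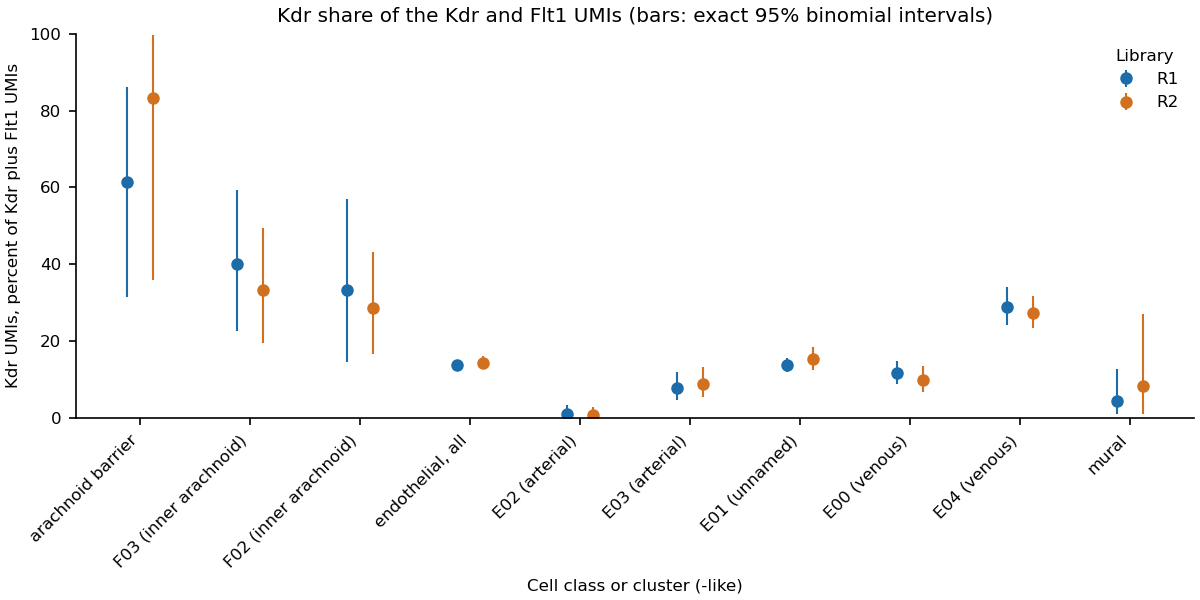
Share of Kdr among the summed Kdr and Flt1 UMIs (vertical axis, percent) by class or cluster, with 1 point per library (R1 and R2) and exact 95% binomial intervals as bars. Arachnoid barrier-like cells (61.5% and 83.3%, from 8 and 5 Kdr UMIs) and the inner arachnoid-like clusters F03 and F02 stand above endothelial-like cells as a whole (13.7% and 14.4%). The F02 interval overlaps the endothelial one in R1. E02 lies lowest. Dural border-like and border macrophage-like cells, with shares like those of inner arachnoid-like cells, are not drawn.

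As a description, the genes whose log2 CPM ran closest to each member were sought among 6713 genes over the 14 class and library sums of the 7 tested classes, points that share libraries, depth and classes. Nearest to Vegfa were Vps16 (Pearson's r = 0.97), Mdk (0.97) and Olfml1 (0.95), and nearest to Kdr were Tgm2 (0.97), Limch1 (0.92) and Slc2a1 (0.91). For Flt1 they were Rflnb (0.97), Efr3b (0.95) and Eps8l2 (0.94), and for Nrp1 Atp6v0a1 (0.94), Gapvd1 (0.90) and Nucb2 (0.88). Tek and Tie1 had Grrp1 (0.98 for both) and Degs2 (0.98 and 0.99) in common, with Bmx (0.98) for Tek and Adgrl4 (0.98) for Tie1. Angptl2 ran closest to Il34 (0.99), Vstm4 (0.98) and its family member Angpt2 (0.96), Angptl4 to Msi2 (0.97), Dvl1 (0.96) and Luc7l2 (0.93), and Angpt1 to Nbeal1, Arhgap6 and Arhgef25 (0.94 each).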

How the data were processed

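For each library the authors deposited a matrix of unnormalised UMI counts (genes by barcodes). Per the file headers it came from Cell Ranger 4.0.0, on the genome build mm10 per the submitters' processing notes. The deposited feature and barcode lists, whose unit is other, name genes and cells. R1 held 7276 barcodes with 14586462 UMIs and R2 6743 with 12359040. A cell was kept with 400 or more genes and no more than 10% of its UMIs mitochondrial. Scrublet (expected rate 0.05) called 3 cells in each library, 0.100% and 0.0987%, too few to count as doublet removal, so doublets may remain.

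Counts were clustered in scanpy 1.11.5 (2000 variable genes, 30 components, 15 neighbours, Leiden resolution 1.0, then 0.8 for fibroblast-like and 0.6 for endothelial-like cells) and named from 26 marker lists. The naming rule was adjusted once after clusters had been seen, without use of any member. The members and lists were chosen with earlier results of these data known.

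Counts were summed per class and library (at least 40 cells, or 20 for endothelial-like sets) and tested with edgeR 4.0.16 (R 4.3.3; quasi-likelihood, TMM, filterByExpr, library as a block, Benjamini-Hochberg over all genes tested, threshold 0.05). Fold changes are log2, of the class named first minus the mean of the fitted log2 levels of the others, each with equal weight. The fits left 6, 2 and 2 residual degrees of freedom and were tested on simulated data. Library is a block because all classes of a library come from 1 suspension. Over 21 pairs of classes, the differences between R1 and R2 correlated across genes with a median of 0.0608 (0.00297 to 0.129). Alternatives were DESeq2 1.42.0, RLE size factors, no filter, no block, stricter cell filters, split counts, other class limits and each library left out. Named genes were the members and, per list and comparison, up to 2 called genes with the largest fold change and at least 50 CPM on the higher side, plus the 3 genes most like each member. Further genes were named as markers or values after they were seen.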

Additional observations from a re-analysis of the deposited data

How the results depend on the processing

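Of 69 member results, RLE size factors kept 68 in direction and call, dropping the library block 67 and no low-count filter 66. DESeq2 kept 58, lost the call of 9 and gave the others no adjusted p. Fewer results could be compared in the next settings. Separate parts of the counts kept 47, lost 12 calls and gained 1. At most 5% mitochondrial UMIs kept 47, lost 6 and gained 3. The limit of 30 cells kept 45, lost 6 and gained 3. At least 1% Malat1 kept 49, lost 2 and gained 5. With no replicate block the Flt1 differences of E01 (0.38, adjusted p = 0.0586) and of the venous-marker pair (−0.40, adjusted p = 0.0527) lost their call, and no other member's call changed. The signs turned for Nrp1 in pial and perivascular-like cells with F02 apart (0.77, adjusted p = 0.0408) and for Vegfa in inner arachnoid-like cells with F04 in the fit (0.53, adjusted p = 0.260) or F02 apart (0.53, adjusted p = 0.263). Each of these settings adds a cluster to the other side of the comparison. Kdr in inner arachnoid-like cells got no adjusted p from DESeq2 and was too scarce in the split counts.

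Counts of all genes called moved more. With classes and test on separate random parts of the counts, where 35.9% of dural border-like and 0 of 73 arachnoid barrier-like cells kept their class, they were 2095 for endothelial-like cells (3307 otherwise), 689 for mural-like (1103), 2035 for the layers against vessels (3410), 741 for inner arachnoid-like (2559), 1199 for dural border-like (2572), 170 for E01 (518), 180 for the venous-marker pair (561) and 292 for the arterial-marker pair (540). DESeq2 gave 664 for pial and perivascular-like (1565 otherwise), 973 for inner arachnoid-like, 1114 for dural border-like, 106 for E01, 145 for the venous-marker and 213 for the arterial-marker pair. At most 5% mitochondrial UMIs gave 732, 1179 and 1495 for the pial, inner arachnoid and dural border layers. At least 1% Malat1 gave 995 and 1030 for the pial and inner arachnoid layers, F04 in the fit 2906 and 1470, F02 apart 1139 for inner arachnoid, and the 30-cell limit 1478 for dural border. The causes were not tested. Mural-like cells fell under the cell limit in the mitochondrial and Malat1 settings. Each library alone gives a value with no test; there no member result that passed changed sign, while 8 that did not pass did. The planned test of arachnoid barrier-like cells could not be run at 40 cells. In mural-like cells 3 UMIs are worth 33.0 and 42.7 CPM, which limits every ligand value there.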

Other observations

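Microglia-like cells (194 and 99 cells), resident macrophages of the brain, held Kdr at 35.4 and 15.1 CPM from 21 and 4 UMIs, above the 2.89 and 5.25 CPM of border macrophage-like cells in both libraries. Kdr gave 58.3% (40.8 to 74.5) and 100% (39.8 to 100) of their Kdr and Flt1 UMIs, against 13.7% and 14.4% in endothelial-like cells. Nrp1 stood at 91.1 and 82.9 CPM in microglia-like cells, against 388 and 450 CPM in border macrophage-like cells. Among the border macrophage-like clusters Nrp1 was higher in C04, at 463 and 571 CPM, than in C07, at 258.5 and 277 CPM. Of C04 cells 86.1% and 90.9% had at least 1% of their UMIs from Malat1, at medians of 5348 and 5100 UMIs. Of C07 cells 2.45% and 2.90% did, at medians of 1151 and 996.5 UMIs. These values were not tested.

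The unnamed cluster F06 held Flt1 at 197 and 203 CPM and Tie1 at 93.4 and 20.3 CPM, beside Cldn5 at 477 and 413 CPM. The Tie1 values rest on 9 and 3 UMIs, in 2 of 37 and 2 of 53 cells. Its fibroblast marker sum was 2376 and 3590 CPM, against 9129 and 9442 CPM in pial and perivascular-like cells.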
